A study of Homo sapiens with 24 samples.

Results

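The 10 genes described here are cyclins, kinases and regulators that act in the G2 phase and mitosis: CCNA2, CCNB1, CCNB2, CDK1, PLK1, AURKA, CDC25B, CDC25C, CDC20 and FOXM1. They were chosen by name and found through their Ensembl identifiers, and all 10 of the 60617 genes in the count table passed the filter on low counts, which left 15476 genes tested. In GENCODE release 44 on GRCh38, the build the authors aligned to, all 10 are protein coding: CCNA2 at chr4:121816444-121823883 (minus strand), CCNB1 at chr5:69167135-69178245 (plus strand), CCNB2 at chr15:59105126-59125045 (plus strand), CDK1 at chr10:60778331-60794852 (plus strand), PLK1 at chr16:23677656-23690367 (plus strand), AURKA at chr20:56369389-56392337 (minus strand), CDC25B at chr20:3786772-3806121 (plus strand), CDC25C at chr5:138285269-138338355 (minus strand), CDC20 at chr1:43358981-43363203 (plus strand), FOXM1 at chr12:2857680-2877174 (minus strand). RNASeq was performed on MDA686TU cells, a malignant line of head and neck squamous carcinoma. There were 24 libraries, 6 each from untreated cells and from cells given 40 µM EGCG, 15 µM resveratrol or the combination of both doses for 24 h. EGCG is the main polyphenol of green tea, and resveratrol is a phytoalexin of grapes. Resveratrol was taken from a DMSO stock and EGCG from a water solution, and whether control cells received DMSO is not given in the sources used here, so resveratrol and its solvent cannot be told apart. All results are from 1 cell line, and the labels do not say what separates the 6 replicates, so the p-values measure the spread between these libraries, which may be technical.

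Cells enter mitosis when cyclin B switches on the kinase CDK1, and the CDC25 phosphatases remove the inhibitory phosphates that the kinase WEE1 places on CDK1. Polo-like kinase PLK1 and Aurora kinase AURKA build the spindle and strengthen this switch, and CDC20 then directs the anaphase-promoting complex, a ubiquitin ligase, to destroy the cyclins. The transcription factor FOXM1 and the MuvB complex drive these genes late in the cell cycle, the latter through a promoter element named CHR, often near CCAAT boxes bound by NF-Y. In a culture whose cells are not synchronised, a lower transcript level can mean fewer cells in G2 and mitosis or less RNA per such cell, and these cannot be told apart in bulk RNA.

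The promoters of 5 of the genes are shown because they hold the elements named above in different number and because the genes differed in how far they fell. The RefSeq promoter table for GRCh38.p14 had an entry for 8 of the 10 genes, with 15 windows of 300 bases in all, each from 250 bases before an annotated start to 50 bases after it. AURKA and FOXM1 had no entry. Each sequence below is written 5′ to 3′ in the direction of the gene, and capitals mark CCAAT and the CHR letters TTTGAA or TTCGAA on either strand, so that ATTGG and TTCAAA are matches on the other strand. No letters of the 2 kinds of motif overlapped in these windows.
PLK1, plus strand, chr16:23678639-23678938: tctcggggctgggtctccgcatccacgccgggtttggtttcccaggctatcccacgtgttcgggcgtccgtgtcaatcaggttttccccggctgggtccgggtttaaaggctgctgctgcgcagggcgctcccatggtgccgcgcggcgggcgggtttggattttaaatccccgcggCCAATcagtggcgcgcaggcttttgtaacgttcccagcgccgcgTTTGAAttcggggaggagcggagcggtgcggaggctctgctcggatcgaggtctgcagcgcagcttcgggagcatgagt
CDC20, plus strand, chr1:43358731-43359030: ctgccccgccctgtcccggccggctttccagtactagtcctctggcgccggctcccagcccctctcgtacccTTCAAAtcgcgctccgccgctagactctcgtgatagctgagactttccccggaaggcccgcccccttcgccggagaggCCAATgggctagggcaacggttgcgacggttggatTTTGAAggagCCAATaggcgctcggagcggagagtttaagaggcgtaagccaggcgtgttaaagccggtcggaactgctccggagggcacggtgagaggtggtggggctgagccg
CCNB1, plus strand, chr5:69166900-69167199: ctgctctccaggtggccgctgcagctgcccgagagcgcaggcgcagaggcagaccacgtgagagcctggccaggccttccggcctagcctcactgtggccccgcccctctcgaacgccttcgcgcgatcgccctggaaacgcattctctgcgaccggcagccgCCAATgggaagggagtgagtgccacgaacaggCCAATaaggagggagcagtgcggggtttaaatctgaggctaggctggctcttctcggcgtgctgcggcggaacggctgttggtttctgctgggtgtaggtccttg
CCNB2, plus strand, chr15:59104896-59105195: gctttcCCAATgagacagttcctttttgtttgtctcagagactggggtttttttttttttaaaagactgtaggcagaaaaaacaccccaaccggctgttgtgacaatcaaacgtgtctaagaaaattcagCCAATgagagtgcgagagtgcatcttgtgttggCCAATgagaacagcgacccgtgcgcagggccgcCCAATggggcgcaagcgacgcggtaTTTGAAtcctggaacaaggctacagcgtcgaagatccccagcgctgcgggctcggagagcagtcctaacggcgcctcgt
CDK1, plus strand, chr10:60778228-60778527: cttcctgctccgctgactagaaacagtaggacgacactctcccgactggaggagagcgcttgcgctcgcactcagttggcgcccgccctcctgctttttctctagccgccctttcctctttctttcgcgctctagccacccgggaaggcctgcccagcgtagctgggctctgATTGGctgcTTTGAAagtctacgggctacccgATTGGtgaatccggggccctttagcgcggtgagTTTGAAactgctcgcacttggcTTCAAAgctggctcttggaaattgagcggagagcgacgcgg

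PLK1 held 1 CCAAT at -73 and 1 TTTGAA at -29, counted from the annotated start (0) to the leftmost base of the match. CDC20 had CCAAT at -100 and -55 with TTTGAA at -65 between them, and TTTGAA on the other strand at -178. CCNB2 had TTTGAA at the same distance, -29, with CCAAT at -120, -87 and -54 before it and a further match at the edge of the window. CCNB1 had CCAAT at -87 and -55 and neither TTTGAA nor TTCGAA. CDK1, in the window shown, had CHR letters at -69, -13 and 10 and CCAAT on the other strand at -78 and -46. CCAAT was found in at least 1 window of all 8 genes and in 34.6% of the 35116 windows in the table, and TTTGAA or TTCGAA in 6 of the 8 genes and 16.4% of all windows. TTTGAA alone was in 5 genes (15.2% of windows) and TTCGAA in CDC25B (1.45% of windows). Windows with 2 or more CCAAT made up 10.8% of the table and were found for 5 genes, and windows with both kinds of motif made up 6.38% and were found for 6 genes. Several windows of 1 gene overlap and CDC25B and CDC25C had 4 each, so the share over genes and the share over windows are not the same measure. A match describes these letters only. Only the spellings TTTGAA and TTCGAA were searched, so a window without them is not shown to lack a CHR. PLK1 and CDC20, which had CHR letters, fell furthest with the combination among the 8 genes. CCNB1 and CCNA2, which had neither of the spellings searched, fell further than CCNB2, CDK1, CDC25B and CDC25C, which had at least 1. Whether the letters are related to the falls was not tested.

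**Figure D1:**
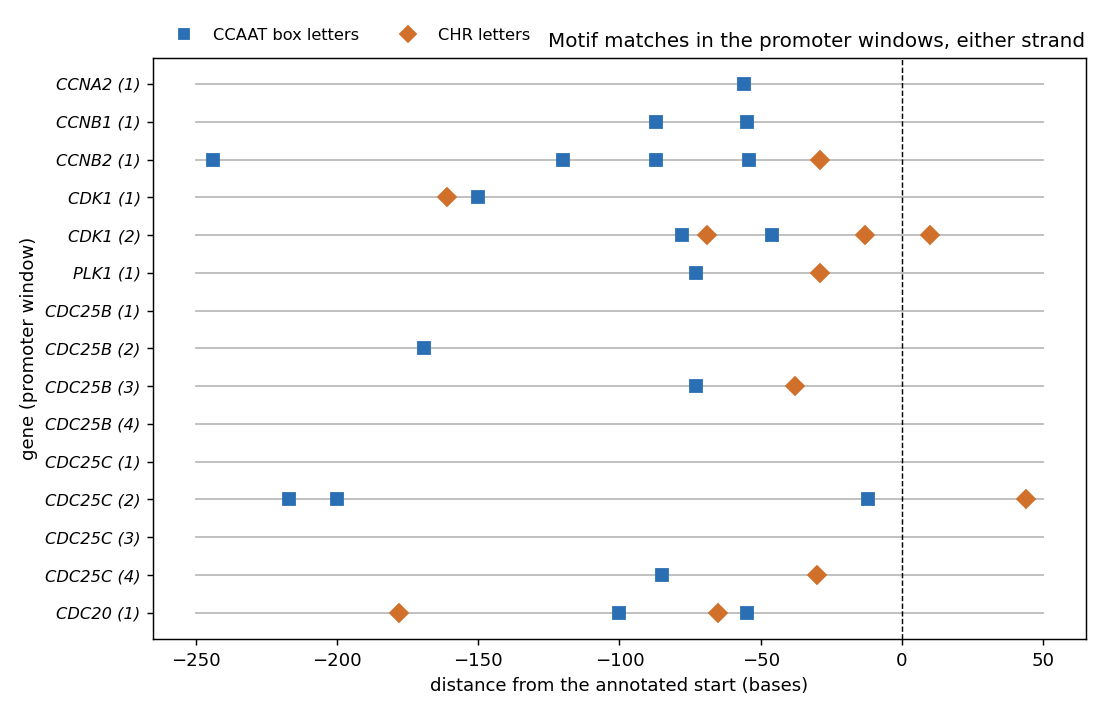
Positions of CCAAT (squares) and CHR letters (diamonds) on either strand in the 15 promoter windows of 8 genes, with the distance from the annotated start in bases on the horizontal axis and the gene and window number on the vertical axis. Of the 15 windows, 11 had CCAAT and 8 had CHR letters.

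Libraries held 7034872 to 11735574 counts in total. In replicates 1 to 3 of every group mitochondrial transcripts took 0.249% to 0.326% of the counts and in replicates 4 to 6 0.448% to 0.775%, and the changes within each set of 3 are given beside the pooled ones, where a call can also be lost because there are fewer libraries. No label names a batch. Of the squamous epithelial markers KRT5, KRT14, KRT17, TP63, EPCAM and CDH1, all 6 were detected in every library, and their summed FPKM was 3887 to 4121 in the control, 3667 to 4219 with EGCG, 3128 to 3347 with resveratrol and 3089 to 3378 with the combination. Of 8 markers of other cells, COL1A1 was at 10.2 to 20.0 FPKM and the others at no more than 0.511, with medians of 0 for COL3A1, PTPRC, CD3E and PECAM1. The summed FPKM of the 8 was 13.1 to 15.9, 10.6 to 13.0, 15.4 to 18.2 and 17.9 to 20.7 in the same order of groups, and the part of these shifts in the results below was not tested.

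The 10 genes together were lowest with the combination. Their summed normalized count per library (as deposited by the authors, each library scaled by its own size factor) was 18335 to 19674 in the control, 17508 to 18539 with EGCG, 14027 to 14776 with resveratrol and 12151 to 12960 with the combination. The ranges of resveratrol and of the combination did not overlap with each other or with those of the other groups, and only the control and EGCG overlapped. A gene was called when edgeR's quasi-likelihood test gave a Benjamini-Hochberg adjusted p under 0.1 over all 15476 genes and its unadjusted p was under 0.05. By this rule 4 (PLK1, CCNB1, CCNA2 and AURKA) of the 10 genes were lower with EGCG (0.859% of all tested genes were called lower), 8 with resveratrol (28.0% of all) and all 10 with the combination (29.9% of all), and edgeR called none higher (0 also at an unadjusted p under 0.05 and with DESeq2), against 0.905%, 28.9% and 29.9% of all genes called higher with EGCG, resveratrol and the combination. The median log2 fold change of the 10 genes was -0.08 for EGCG, -0.36 for resveratrol and -0.56 for both agents, while the median of all tested genes was 0.00090, 0.0037 and -0.0015. These 3 comparisons share the 6 control libraries. Every library was below every control library for 3 genes with EGCG (0.795% of all genes), 7 with resveratrol (15.9% of all) and 6 with the combination (16.5% of all).

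**Figure D2:**
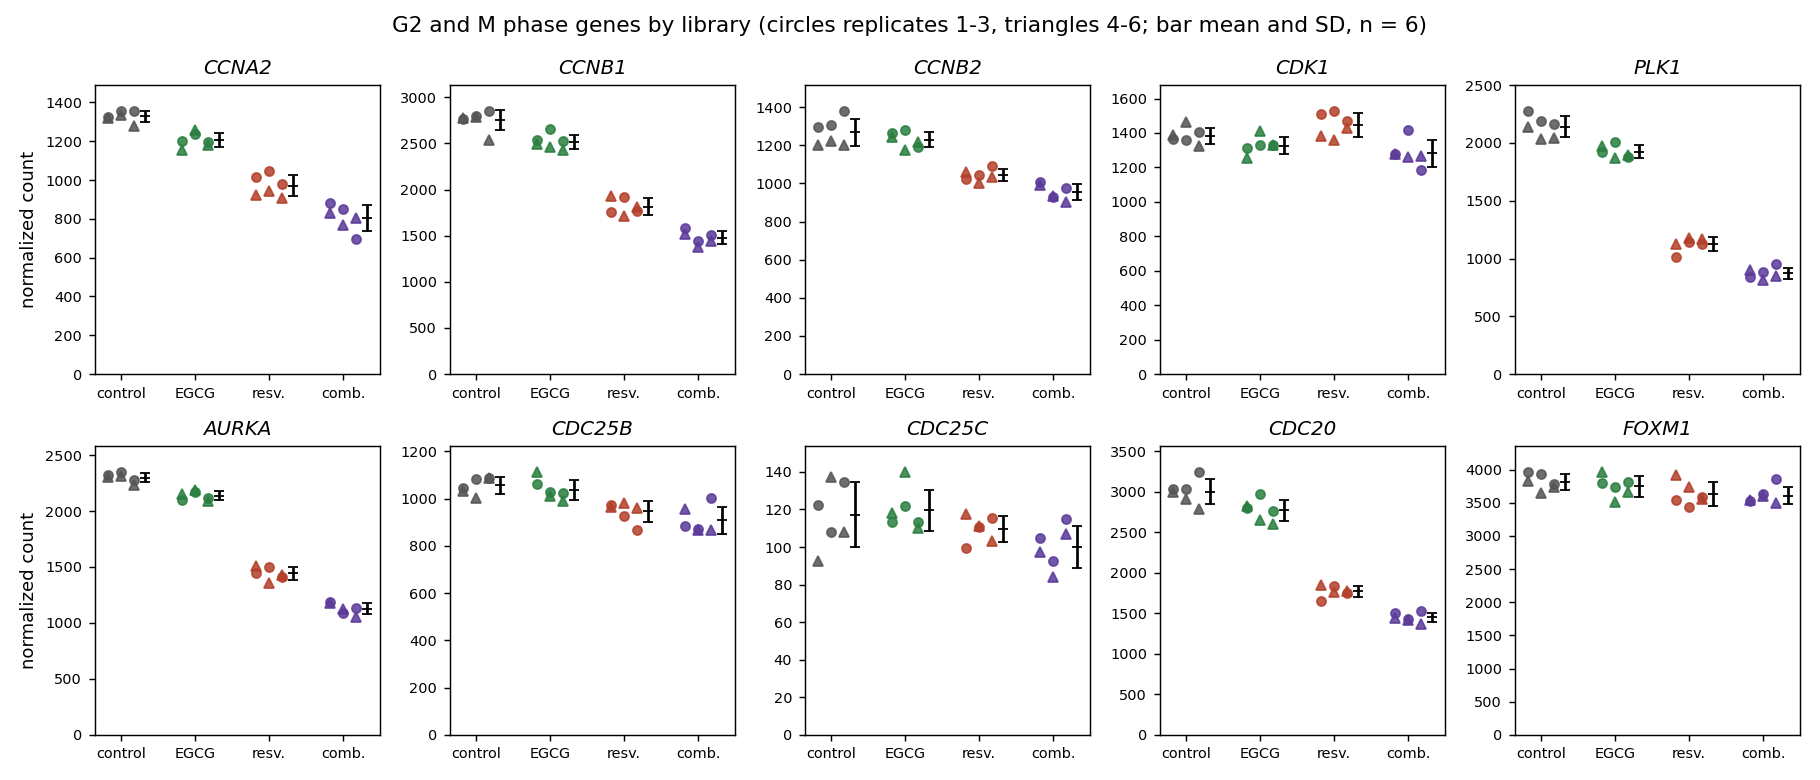
Normalized counts of the 10 genes (vertical axes, each from 0) in each of the 24 libraries by group, with circles for replicates 1 to 3, triangles for replicates 4 to 6, and the mean with SD (n = 6) beside them. PLK1, AURKA, CDC20 and CCNB1 step down from control to combination, while CDK1 and FOXM1 keep overlapping ranges in every group.

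PLK1, the kinase that promotes CDK1 activation and spindle assembly, fell furthest of the 10 with resveratrol and with both agents. Its normalized count was 2036 to 2274 (median 2150.3) in the control, 1871 to 2007 (median 1909) with EGCG, 1012 to 1179 (median 1138) with resveratrol and 818 to 953 (median 865) with the combination. No 2 of the 4 groups overlapped for PLK1, and its mean was 90.0% of the control with EGCG, 52.6% with resveratrol and 40.8% with both agents. Its log2 fold change was -0.15 with EGCG (SE 0.0363, edgeR adjusted p = 0.0203), -0.92 with resveratrol (SE 0.0373, adjusted p = 2.59e-21) and -1.29 with the combination (SE 0.0383, adjusted p = 1.73e-25). Within replicates 1 to 3 and 4 to 6 the resveratrol change was -1.002 and -0.84, the combination change -1.30 and -1.27 and the EGCG change -0.19 and -0.12, the last called in neither set (edgeR adjusted p = 0.142 and 0.384).

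AURKA, which acts at the centrosome and activates PLK1, also fell in each treated group. Its normalized count was 2229 to 2349 (median 2307) in the control, 2091 to 2187 (median 2133) with EGCG, 1360.2 to 1506 (median 1438) with resveratrol and 1056 to 1189.5 (median 1130.1) with the combination. The groups did not overlap, and the SD over 6 control libraries was 41.6 around a mean of 2298. The log2 fold change was -0.10 with EGCG (SE 0.0305, edgeR adjusted p = 0.0956), -0.67 with resveratrol (SE 0.031, adjusted p = 1.54e-19) and -1.02 with the combination (SE 0.0317, adjusted p = 5.33e-25). The resveratrol change was -0.66 and -0.67 within these sets of replicates, the combination change -1.02 and -1.03 and the EGCG change -0.12 and -0.09 (adjusted p = 0.397 and 0.657, not called). The call with EGCG was lost in 14 of 24 fits with 1 library left out: control replicates 1 to 5, EGCG replicates 1, 2, 3, 4 and 6, resveratrol replicates 1, 3 and 6, and combination replicate 5 (adjusted p up to 0.201). It was also lost with library size alone as the scaling and with every gene that had a count.

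CDK1, the kinase that the mitotic cyclins activate, behaved differently. Its normalized count was 1322 to 1462 (median 1377) in the control, 1253 to 1410.1 (median 1328) with EGCG, 1359 to 1526 (median 1449) with resveratrol and 1183 to 1417 (median 1272) with the combination, so that all 4 ranges overlapped. It was at 104% of the control with resveratrol and 92.6% with both agents. Its resveratrol change was 0.07 (SE 0.0372, edgeR adjusted p = 0.127), with a 95% interval of -0.01 to 0.14, and was not called. With the combination CDK1 was called lower at -0.11 (SE 0.0377, edgeR adjusted p = 0.0136), a call lost without control replicate 5 (adjusted p = 0.115), in replicates 1 to 3 and with library size alone as the scaling, which gave -0.03 (adjusted p = 0.602). Within these sets of replicates the combination change was -0.09 and -0.13 (edgeR adjusted p = 0.186 and 0.0193) and the resveratrol change 0.13 and -0.0011. CDK1 was called higher with resveratrol in replicates 1 to 3 (edgeR adjusted p = 0.0413), with library size alone, at 0.16 (adjusted p = 0.00102), with at least 10 counts in every library and with only the groups compared. It was also called higher with resveratrol in 7 of the 24 fits with 1 library left out (control replicate 5, EGCG replicates 1, 2, 4 and 6, and resveratrol replicates 4 and 5), and the change was 0.05 to 0.10 over the 24.

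The cyclins fell in the order CCNB1, CCNA2, CCNB2. CCNB1 encodes cyclin B1, the main mitotic partner of CDK1, and its normalized count was 2542 to 2849 (median 2780.1) in the control, 2432 to 2652 (median 2512) with EGCG, 1716 to 1929 (median 1791) with resveratrol and 1382 to 1584 (median 1474) with the combination. The control and EGCG ranges overlapped through control replicate 6, at 2542, while resveratrol and the combination lay below both and apart from each other. Its log2 fold change was -0.13 with EGCG (SE 0.0342, edgeR adjusted p = 0.0513), -0.60 with resveratrol (SE 0.0346, adjusted p = 8.2e-17) and -0.89 with the combination (SE 0.0351, adjusted p = 7.4e-22). Within replicates 1 to 3 and 4 to 6 the resveratrol change was -0.62 and -0.57, the combination change -0.89 and -0.90 and the EGCG change -0.12 and -0.13, the last not called (edgeR adjusted p = 0.392 and 0.313). The call with EGCG was lost without control replicate 2, 3 or 4 or EGCG replicate 3 or 5 (adjusted p up to 0.122).

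CCNA2, cyclin A2, acts in S phase and at G2, and its normalized count was 1279 to 1355 (median 1332) in the control, 1157 to 1256 (median 1199) with EGCG, 908 to 1045 (median 962) with resveratrol and 694 to 882 (median 817) with the combination. No 2 groups overlapped. The change was -0.14 with EGCG (SE 0.0404, edgeR adjusted p = 0.0914), -0.45 with resveratrol (SE 0.0408, adjusted p = 1.36e-11) and -0.72 with the combination (SE 0.0418, adjusted p = 4.84e-17). Within the sets of 3 replicates the resveratrol change was -0.40 and -0.50, the combination change -0.73 and -0.71 and the EGCG change -0.15 and -0.13, the last not called (edgeR adjusted p = 0.487 and 0.382). The EGCG call was lost in 14 of 24 fits with 1 library left out: control replicates 1 to 5, EGCG replicates 1, 2, 3, 4 and 6, resveratrol replicates 3 and 5, and combination replicates 5 and 6 (adjusted p up to 0.21), and with library size alone. CCNA2 shares 578 bases with EXOSC9 on the other strand, and the strand setting of the counting is not given in the sources used here.

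CCNB2, cyclin B2, which has much of its action at the Golgi, had a normalized count of 1202 to 1379 (median 1259) in the control, 1177 to 1279.7 (median 1232) with EGCG, 1004 to 1092 (median 1038) with resveratrol and 903 to 1008 (median 956) with the combination. Control and EGCG overlapped, and resveratrol and the combination lay below both but touched each other. Its change was -0.28 with resveratrol (SE 0.0361, edgeR adjusted p = 4.4e-08), -0.40 with the combination (SE 0.0366, adjusted p = 9.73e-12) and -0.04 with EGCG (adjusted p = 0.745, not called). The resveratrol change was -0.33 and -0.23 within replicates 1 to 3 and 4 to 6, the combination change -0.44 and -0.36 and the EGCG change -0.09 and 0.0011.

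CDC20, the coactivator of the anaphase-promoting complex, had a normalized count of 2784 to 3242 (median 3015) in the control, 2604 to 2972 (median 2778) with EGCG, 1646 to 1849 (median 1772) with resveratrol and 1364 to 1533 (median 1436) with the combination. Control and EGCG overlapped and the other groups did not. Its change was -0.76 with resveratrol (SE 0.0362, edgeR adjusted p = 3.78e-19) and -1.05 with the combination (SE 0.0368, adjusted p = 2.56e-23), and at -0.12 with EGCG it missed the call (adjusted p = 0.127), which it passed without control replicate 6, EGCG replicate 2 or combination replicate 3, with DESeq2, with at least 10 counts in every library, with the replicate number as a block and with the batch term. Within replicates 1 to 3 and 4 to 6 the resveratrol change was -0.82 and -0.69, the combination change -1.05 and -1.04 and the EGCG change -0.12 and -0.11. The pseudogene CDC20P1 had a mean of 125.7 in the control and 59.6 with the combination (log2 fold change -1.07), and reads of the 2 could be shared, so that part of the CDC20 count is of uncertain origin. The pseudogenes of AURKA and CCNB2 averaged no more than 9.60 normalized counts in a group.

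The CDC25 phosphatases changed less. CDC25B was at 1004 to 1089 (median 1063) in the control, 989 to 1113 (median 1024) with EGCG, 869 to 984 (median 961) with resveratrol and 868 to 1005 (median 878) with the combination, and was called lower with resveratrol (-0.16, SE 0.0394, edgeR adjusted p = 0.00104) and with the combination (-0.21, SE 0.0398, adjusted p = 2.26e-05). Every resveratrol library was below every control library, while the combination and the control just touched, at 1005 and 1004. With library size alone as the scaling the resveratrol change was -0.07 and not called (edgeR adjusted p = 0.129), and the combination change was -0.13. Within replicates 1 to 3 and 4 to 6 the resveratrol change of CDC25B was -0.21 and -0.11 (edgeR adjusted p = 0.00483 and 0.0925), the combination change -0.21 and -0.22 and the EGCG change -0.04 and -0.01. CDC25C was the least abundant gene, at 92.8 to 137 (median 115) in the control, 110.0 to 140.0 (median 116) with EGCG, 99.3 to 118 (median 111) with resveratrol and 83.9 to 115 (median 101) with the combination. All its ranges overlapped, and it was called only with the combination (-0.22, SE 0.0907, edgeR adjusted p = 0.0381), a call lost without control replicate 3, control replicate 5 or combination replicate 5 (adjusted p up to 0.156). The call was also lost with only the groups compared, with library size alone, at -0.14 (edgeR adjusted p = 0.204), and in each set of 3 replicates, where the combination change was -0.22 and -0.22 (adjusted p = 0.136 and 0.185). The resveratrol change of CDC25C was -0.16 and -0.02 and its EGCG change -0.07 and 0.15 within these sets. CDC25C shares 6421 bases with FAM53C on the other strand.

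FOXM1, the transcription factor upstream of many of these genes, changed least with the combination. Its normalized count was 3649 to 3961 (median 3805) in the control, 3508 to 3963 (median 3767) with EGCG, 3436 to 3924 (median 3569.9) with resveratrol and 3488 to 3859 (median 3568) with the combination, with all ranges overlapping. The change was -0.07 with resveratrol (SE 0.0329, edgeR adjusted p = 0.084) and -0.08 with the combination (SE 0.0329, adjusted p = 0.0442), with a 95% interval of -0.14 to -0.01 for the latter. Within replicates 1 to 3 and 4 to 6 the resveratrol change was -0.14 and 0.0011 (edgeR adjusted p = 0.00974 and 0.987), so that the sign turned in the latter, and the combination change was -0.08 and -0.08, called in neither (adjusted p = 0.138 and 0.133). The EGCG change was -0.04 and -0.01. The call with resveratrol held in 10 of 24 fits with 1 library left out (change -0.09 to -0.05), and was lost without any of control replicates 1, 2, 4 and 5, EGCG replicates 1, 2, 4 and 6, resveratrol replicates 1, 2, 3 and 6, and combination replicates 4 and 5. The call with the combination was lost without control replicate 1 or 2, EGCG replicate 1, 2, 4 or 6, or combination replicate 1 or 6, and with library size alone as the scaling the changes were 0.02 and 0.01. Both calls were also lost with at least 10 counts in every library and with only the groups compared, and the resveratrol call with every gene that had a count. FOXM1 shares 2112 bases with ITFG2 and 917 with RHNO1 on the other strand.

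**Figure D3:**
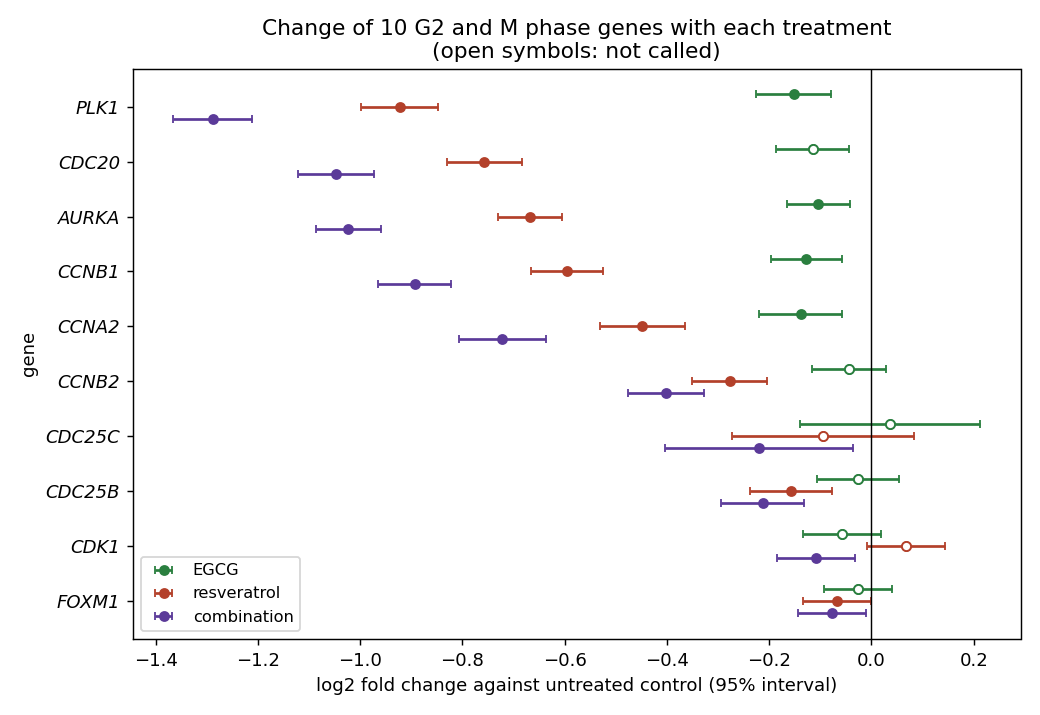
Log2 fold change against untreated control (horizontal axis) of each gene (vertical axis, ordered by the combination change) in each treated group, with 95% intervals and open symbols where not called. PLK1 ran from -0.15 to -1.29, and FOXM1 stayed between -0.03 and -0.08, its combination change being positive, 0.01, with library size alone.

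Between genes, levels were compared per length as FPKM. In the control the order was CDC20 (171 ± 8.64 FPKM, mean ± SD, n = 6), CCNB1 (129.7 ± 5.05), AURKA (90.0 ± 1.63), FOXM1 (89.3 ± 2.79), CCNA2 (54.4 ± 1.16), CCNB2 (52.8 ± 2.95), PLK1 (51.5 ± 2.19), CDK1 (40.3 ± 1.38), CDC25B (28.1 ± 0.943) and CDC25C (4.03 ± 0.592). The control ranges of AURKA and FOXM1 overlapped, as did those of CCNA2, CCNB2 and PLK1, and differences between genes were not tested. With the combination FOXM1 led at 84.4 ± 3.13 FPKM, overlapping with CDC20 at 82.5 ± 3.47, and then came CCNB1 at 69.7 ± 3.34. PLK1 had dropped to 19.7 to 22.9 FPKM, below CDC25B at 23.1 to 26.7, while CDK1 (34.5 to 41.3) overlapped with CCNB2 (37.6 to 42.0) and CCNA2 (28.4 to 36.1). The ratio of CDK1 to PLK1 within a library, in which scaling cancels, had a mean log2 of -0.63 (SD 0.087) in the control on the normalized counts, 0.36 (SD 0.13) with resveratrol and 0.55 (SD 0.13) with the combination, and neither treated group overlapped with the control. The log2 ratio of CCNB1 to CCNB2 was 1.12 (SD 0.063), 0.80 (SD 0.066) and 0.63 (SD 0.038) in these groups, none of which overlapped. Both ratios were picked after the values were seen from 45 pairs of the 10 genes. In 32 of the 45 pairs the resveratrol libraries did not overlap with the control, and in 33 the combination libraries did not, so such a shift from the control was common to most pairs. The combination and resveratrol libraries did not overlap in 10 of the 45 pairs, CCNB1 to CCNB2 among them. Each of the 4 differences from the control had the smallest p that an exact two-sided permutation test of 6 against 6 allows, 0.00216, which is no independent evidence for a pair chosen in this way.

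Over the 24 libraries, the correlation of each gene's log2 CPM with the mean of the other 9 was 0.994 for CCNB1, 0.991 for CDC20 and for AURKA, 0.984 for PLK1, 0.968 for CCNB2, 0.953 for CCNA2, 0.822 for CDC25B, 0.562 for CDC25C, 0.506 for FOXM1 and 0.161 for CDK1. The points share treatment groups and libraries, so these values describe mainly the steps between groups. Among all other tested genes, those most alike to the mean of the 10 over the 24 libraries were KPNA2, a nuclear import adaptor (Pearson's r = 0.991), SORD, sorbitol dehydrogenase (r = 0.986), UBE2C, the ubiquitin-conjugating enzyme of the anaphase-promoting complex (r = 0.986), KIF20A, a kinesin of cytokinesis (r = 0.985), and FKBP4, a cochaperone (r = 0.985). KIF20A changed by -1.14 with the combination and KPNA2 by -0.60 on the log2 scale.

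The combination was also compared with each agent alone. Against resveratrol, 7 of the 10 genes were lower (3.86% of all tested genes were called lower and 4.01% higher), and CDC25B, CDC25C and FOXM1 were not called. The changes were -0.37 for PLK1 (edgeR adjusted p = 4.01e-08), -0.36 for AURKA (adjusted p = 8.55e-10), -0.30 for CCNB1 (adjusted p = 3.31e-07), -0.29 for CDC20 (adjusted p = 1.39e-06), -0.27 for CCNA2 (adjusted p = 3.97e-05), -0.18 for CDK1 (adjusted p = 0.00269) and -0.12 for CCNB2 (adjusted p = 0.039). Every combination library was below every resveratrol library for PLK1, AURKA, CCNB1, CDC20 and CCNA2, 5 genes, against 1.37% of all genes. The CCNB2 call was lost without resveratrol replicate 3 or combination replicate 6 (adjusted p up to 0.109) and in each set of 3 replicates, where its change was -0.12 and -0.13 (edgeR adjusted p = 0.218 and 0.184). Within the sets the CDK1 change was -0.22 and -0.13, not called in replicates 4 to 6 (edgeR adjusted p = 0.02 and 0.176). The other 5 genes were called in both sets, at -0.30 and -0.43 for PLK1, -0.35 and -0.36 for AURKA, -0.27 and -0.33 for CCNB1, -0.23 and -0.35 for CDC20 and -0.33 and -0.21 for CCNA2. Against EGCG alone, 8 genes were lower with the combination (29.1% of all genes), PLK1 among them at -1.14 (edgeR adjusted p = 1.18e-23), while CDK1 at -0.05 and FOXM1 at -0.05 were not called, except CDK1 without combination replicate 2 and FOXM1 without EGCG replicate 5 or combination replicate 3. CDC25C, at -0.26, was -0.15 and -0.38 within the sets and not called in replicates 1 to 3 (edgeR adjusted p = 0.341 and 0.0207) or with library size alone, while the other 7 genes were called in both sets. Resveratrol against EGCG gave 7 genes lower (27.3% of all) and CDK1 higher (27.7% of all), at 0.13 (SE 0.0374, adjusted p = 0.00543). Within replicates 1 to 3 and 4 to 6 this CDK1 change was 0.19 and 0.06, called only in the former (edgeR adjusted p = 0.00587 and 0.35), and it was 0.21 with library size alone. CDC25B, at -0.13, was -0.17 and -0.09 within the sets, called only in the former (edgeR adjusted p = 0.0249 and 0.141), and not called with library size alone. FOXM1 was not called in that comparison, except without resveratrol replicate 4 and in replicates 1 to 3, where its change was -0.10 (edgeR adjusted p = 0.06).

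The interaction asks whether the change with both agents differs from the sum of both single changes on the log2 scale, or equally whether EGCG gives the same change with and without resveratrol. AURKA was the 1 gene of the 10 called lower (0.0582% of all tested genes were called lower in the interaction). Its single changes summed to -0.77 and the combination gave -1.02, an interaction of -0.25 (SE 0.0443, 95% interval -0.34 to -0.16, edgeR adjusted p = 0.0044). The change of AURKA with EGCG was -0.10 alone and -0.36 beside resveratrol. The estimate was -0.27 to -0.23 over 24 fits with 1 library left out, each called, and -0.24 and -0.27 within replicates 1 to 3 and 4 to 6 (edgeR adjusted p = 0.389 and 0.0952).

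For PLK1 the interaction was -0.21 (SE 0.0534, edgeR adjusted p = 0.106), short of the call, but the call depended on the alternative. It was called in 7 of 10 alternatives that kept all libraries or 1 set of 3: DESeq2, library size alone, both other filters, the replicate number as a block, the batch term for the sets of replicates, and replicates 4 to 6 alone. It was also called without control replicate 1, resveratrol replicate 1, combination replicate 3 or combination replicate 4 (adjusted p down to 0.0172), and was -0.11 and -0.32 within the sets of replicates (edgeR adjusted p = 0.834 and 0.0229). Estimates of -0.18 for CDC20 (adjusted p = 0.222), -0.17 for CCNB1 (adjusted p = 0.215), -0.16 for CDC25C, -0.14 for CCNA2, -0.12 for CDK1, -0.08 for CCNB2, -0.03 for CDC25B and 0.02 for FOXM1 were not called in edgeR, except CDC20 and CCNB1 with the replicate number as a block (adjusted p = 0.0556 and 0.0722). Of the 10 estimates 9 were below 0, against 51.8% of all 15476 genes, and the median was -0.15 against -0.0047 for all genes. At an unadjusted p under 0.05, 6 of the 10 were below 0, against 3.92% of all genes. The 10 genes move together over the libraries, and all 10 estimates share the same 24 libraries, so this count is not a count of independent results.

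**Figure D4:**
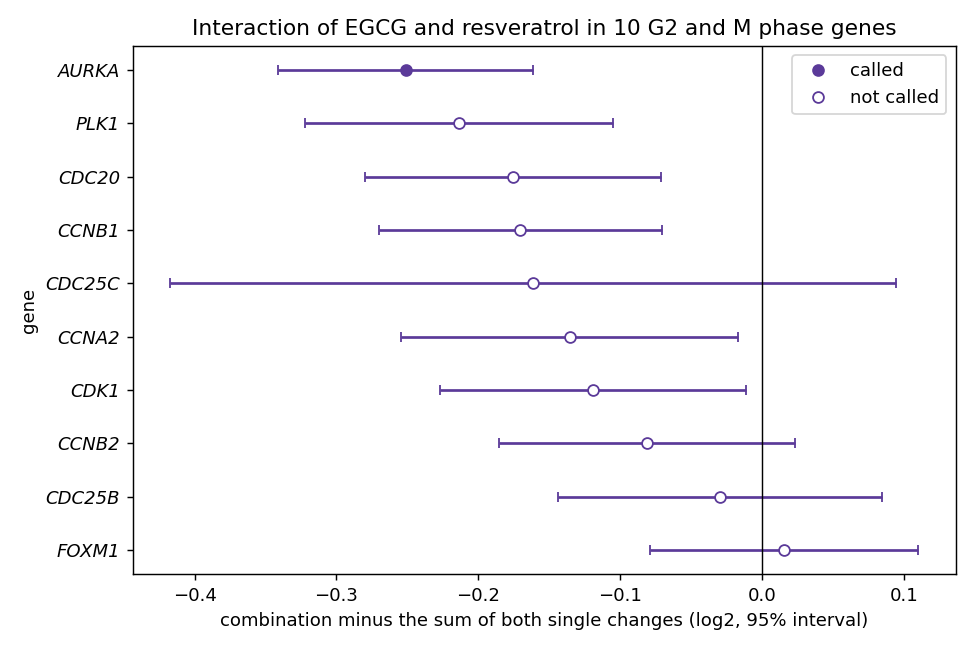
Interaction of EGCG and resveratrol, the combination change minus the sum of both single changes on the log2 scale (horizontal axis), for each of the 10 genes (vertical axis) with 95% intervals and filled symbols where called. AURKA, at -0.25, was the 1 gene called over all 24 libraries, PLK1, at -0.21, was called in 7 of 10 alternatives, and FOXM1, at 0.02, lay nearest to 0.

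The other genes of this machinery were taken from a list of 80 G2/M control genes sorted by role, of which 79 were tested. With EGCG edgeR called 1 lower and 0 higher (1 higher at an unadjusted p under 0.05, 0 with DESeq2), against 0.859% and 0.905% of all tested genes. In the resveratrol comparison 50 were lower and 10 higher (28.0% and 28.9% of all genes), and with the combination 51 lower and 12 higher (29.9% and 29.9% of all genes). The medians were -0.02, -0.21 and -0.21. Against resveratrol the combination had 20 lower and 4 higher (3.86% and 4.01% of all genes). A list of 22 S phase genes had 12 lower and 8 higher both with resveratrol and with the combination, and 2 higher in the combination against resveratrol. The shares of all genes given above for these comparisons are the background here too, and the count of S phase genes higher was near it. With EGCG edgeR called 0 of them, 0 at an unadjusted p under 0.05, and DESeq2 called 0.

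The counts by role that follow are for the combination, in which 29.9% of all tested genes were called lower and 29.9% higher. Of 8 genes listed as CDK1 partners and activators, 6 were lower and none higher. CCNF changed by -0.77 (edgeR adjusted p = 3.36e-16) and the CDK subunit CKS2 by -0.57. CCNF encodes cyclin F, which was listed here as a cyclin but acts in an SCF ubiquitin ligase and is not known to activate CDK1. Of 8 CDK1 inhibitors and checkpoint genes, 2 were higher and 3 lower, both near the share over all genes. CDKN1A, the CDK inhibitor p21, rose from a mean normalized count of 697 ± 31.8 (SD, n = 6) in the control to 1780.0 ± 110.4 with the combination, a log2 fold change of 1.36, and GADD45A, a stress gene that can inhibit CDK1, rose by 0.54. WEE1, the kinase that inhibits CDK1, changed by -0.46 and the checkpoint kinase CHEK1 by -0.33. 

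Among 11 mitotic kinases and their cofactors, 8 were lower and 2 higher with the combination. BORA, the cofactor with which AURKA activates PLK1, changed by -0.75 and CDCA8, a subunit of the Aurora B complex, by -0.60, while ENSA and the kinase MASTL, which together restrain a phosphatase that opposes CDK1, changed by 0.27 and 0.23. TPX2, a spindle activator of AURKA, was the 1 gene of the list called with EGCG (-0.09, edgeR adjusted p = 0.0894). A single call among 79 tested genes is near the share of all genes called lower with EGCG, 0.859%. Over 24 fits with 1 library left out, the list had fewer calls with EGCG in 13, as many in 7 and more in 4. Over the other alternatives it had fewer in 3, library size alone among them, as many in 2 and more in 6. Of 19 genes of the anaphase-promoting complex and its partners, 12 were lower and 4 higher. The ubiquitin-conjugating enzyme UBE2S changed by -0.82 and the subunits ANAPC15, ANAPC13 and ANAPC2 by -0.62, 0.20 and 0.19.

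Of 17 MuvB, DREAM and NF-Y factors, among them the proteins that bind CHR elements and CCAAT boxes, 9 were lower and 4 higher with the combination, the latter near the share over all genes. The MuvB subunit LIN9 changed by -0.53 and E2F5 by -0.45, while TFDP2, a partner of E2F proteins, changed by 0.60 and the pocket protein RBL2 by 0.23. Of 6 mitotic exit phosphatases 4 were lower, PPP1CC at -0.38 and PPP2CA at -0.34 among them. Of 10 other genes expressed in G2 and mitosis 9 were lower, with a median of -0.54. HMMR, a spindle protein, changed by -0.72, PRC1, which bundles microtubules of the midzone, by -0.69 and topoisomerase TOP2A by -0.66. TOP2A was the 1 gene of the list called in the interaction (-0.24, SE 0.0552, edgeR adjusted p = 0.0591). That call was lost in replicates 1 to 3 alone and in at least 7 of 24 fits with 1 library left out.

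**Figure D5:**
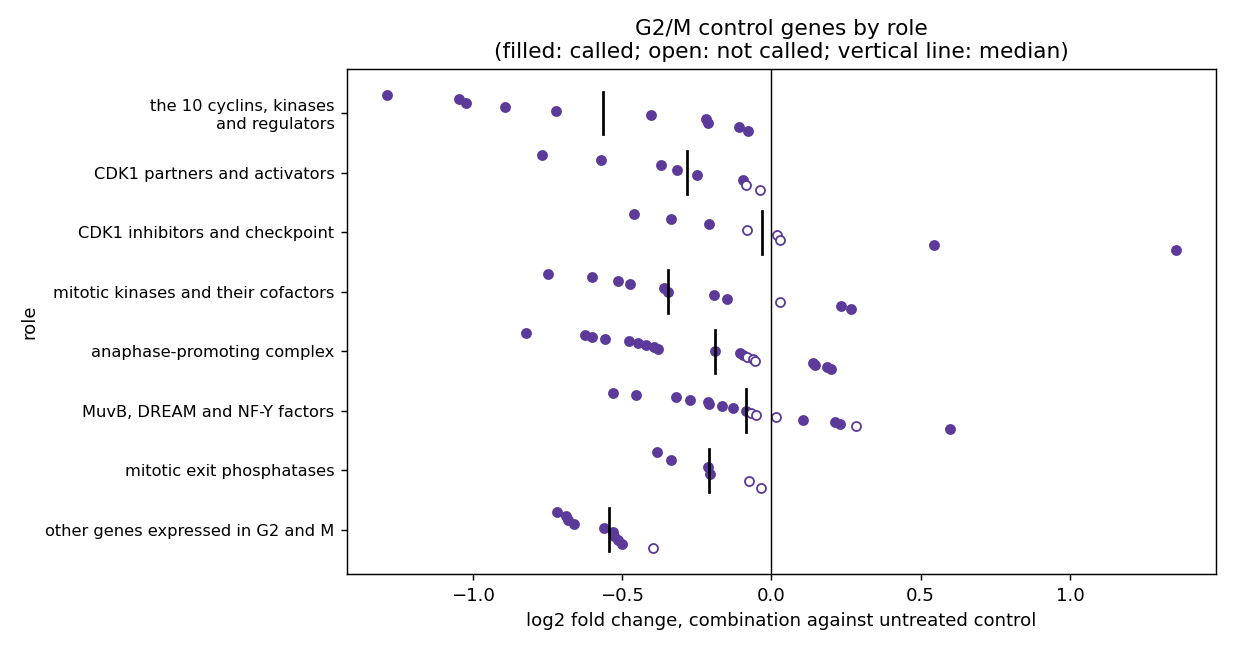
Log2 fold change of the combination against untreated control (horizontal axis) for the 10 genes and for the 79 tested G2/M control genes by role (vertical axis), filled where called, with a vertical line at each median. CDKN1A lies farthest to the right at 1.36. The 10 cyclins, kinases and regulators have the lowest median, -0.56, close to the -0.54 of the other genes expressed in G2 and mitosis.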

How the data were processed

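Total RNA of 24 samples of MDA686TU cells was extracted by the authors with RNeasy and made into stranded mRNA libraries with TruSeq. Per the labels and the methods, reads were handled with bcl2fastq 2.17.1.14, Trimmomatic 0.36, FastQC 0.11.5, HISAT2 2.0.4 on GRCh38, SAMtools 1.3.1 and DESeq2 1.20.0. The counting program, annotation release and strand setting are not given in the sources used here. The authors deposited raw counts per gene, without normalization or pooling. Their normalized counts, a deposited signal, were checked to equal the raw counts over DESeq2's median-of-ratios size factor in 24 of 24 libraries. The deposited FPKM values, made by the authors, kept a constant ratio to them in 33693 of 33693 genes with a count.

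Identifiers were matched to symbols in GENCODE release 44 (60261 of 60617). The raw counts of the 24 libraries went into 1 model in edgeR 4.0.16 under R 4.3.3 (TMM, filterByExpr, quasi-likelihood test, 4 group means), with Benjamini-Hochberg adjustment over 15476 genes, a limit of 0.1 on the adjusted p and 0.05 on the unadjusted p. The SE is the log2 fold change divided by the root of the F statistic. The biological coefficient of variation over all genes was 5.32%. The counting error of 1 library (Poisson) was 1.46% to 3.83% for the other 9 genes and 7.31% to 11.6% for CDC25C (74 to 187 counts). The step was tested on simulated data for resveratrol against control over 15315 genes. Of 200 changed genes edgeR called 198 and DESeq2 1.42.0 197, and edgeR also called 20 unchanged genes. These counts hold for the sizes of change that were simulated, which are not given here. Neither EGCG against control nor the interaction was simulated, so the power to detect their small changes was not tested.

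The members, lists and tests were chosen with earlier results of these data known. The genes named are the 10 members and, of each role of the G2/M control list, up to 2 called higher and 2 called lower with the largest change with the combination, any called in the interaction, the 5 most alike genes, the markers and the pseudogenes. TPX2 was named after its value was seen. The 2 within-library ratios printed were picked after values were seen. Alternatives were the DESeq2 test, DESeq2 size factors, library size alone, 2 other filters, an adjusted p under 0.05, only the groups compared, the replicate number as a block, a batch term and replicates 1 to 3 or 4 to 6 alone, and each library left out.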

Additional observations from a re-analysis of the deposited data

Results flagged for a closer look

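In 2 of the 40 gene and group sets of 6 libraries, 1 library stood apart from the other 5 by Dixon's criterion, and chance alone gives about 1 in 20 sets. Control replicate 6 had 2542 normalized counts of CCNB1, with the other control libraries at 2764 to 2849. Resveratrol replicate 1 had 1012 of PLK1, with the others at 1122 to 1179. The change with EGCG differed between cells with and without resveratrol for AURKA, by -0.25 on the log2 scale, and for TOP2A, by -0.24, both by the interaction test of edgeR. The AURKA call held in all 24 fits with 1 library left out, and the TOP2A call was lost in at least 7 of them.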

How the results depend on the processing

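The 10 genes' log2 fold changes were recomputed in 2440 combinations of gene, comparison and alternative. The call was the same in 2302, lost in 99 and gained in 36. The 2302 include changes called in neither fit whose sign turned, such as CDC25C with EGCG (0.04, and -0.07 in replicates 1 to 3). In a further 3 the sign of a called change turned, all for FOXM1. With resveratrol it came to 0.0202 under scaling by library size alone and to 0.0011 in replicates 4 to 6 alone. With the combination it came to 0.0054 with library size alone. That scaling moved the median of all genes by 0.09 with resveratrol and 0.08 with the combination. It gave 6147 genes higher and 2857 lower with resveratrol (4466 and 4341 with TMM), and 6041 and 3311 with the combination (4633 and 4625 with TMM). The cause of the changes below was not tested, apart from the stricter limit and the smaller number of libraries in each set of 3 replicates.

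With EGCG, 4 genes of the 10 were called, 2 with library size alone, 1 at an adjusted p under 0.05 and 0 in replicates 1 to 3 and in replicates 4 to 6 alone (edgeR), and 1 to 5 with a library left out, with 1 without control replicate 2 and 5 without control replicate 6. Of the G2/M control list, 1 gene was called with EGCG. It was 2 with DESeq2, 5 with every gene that had a count, 2 with at least 10 counts in every library, 3 with only the groups compared, 3 with the batch term, 0 with library size alone, at 0.05 and in replicates 4 to 6 alone, and 0 to 3 with a library left out. In the interaction 1 gene of the 10 was called, 2 with DESeq2, library size alone, either filter, the batch term and replicates 4 to 6 alone, 0 in replicates 1 to 3, and 1 to 2 with a library left out. The list had 1 call there, 2 with every gene that had a count, 3 with the batch term, 0 at 0.05 and in replicates 1 to 3, and 0 to 2 with a library left out. For the combination against resveratrol the list had 24 calls and 13 in replicates 1 to 3 and 11 in replicates 4 to 6.

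With the replicate number as a block, 4 genes of the 10 and 3 of the list were called in the interaction and 4 of the list with EGCG. Over all genes the block gave 370 calls with EGCG and 85 in the interaction, against 273 and 41 without it. Libraries of the same number in different groups deviated together weakly (36 pairs, correlation -0.011 to 0.13, median 0.049, 2 above 0.1). The median was 0.028 for other numbers in the same set of 3 replicates and -0.041 across the sets. Of 24 libraries, 11 correlated best with their own number among the 6. These values do not exclude a structure shared by number or by set, which the main fit left out. No label pairs the samples.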
